A study of Mus musculus with 47 samples.

Results

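The genes described here are 10 genes of bile acid synthesis and transport in mouse liver: Cyp7a1, Cyp8b1, Cyp27a1, Cyp7b1, Cyp39a1, Baat, Slc10a1, Slc10a2, Abcb11 and Nr0b2. They were chosen by name, as the rows of the deposited count table that carry these symbols. Each symbol matched 1 row, so 10 of the 20320 genes in the table were members, and all 10 passed the filter on low counts and were tested. The libraries came from 3 inbred strains: C57BL/6J, the common laboratory strain; CAST/EiJ, a wild-derived strain; and NZO/HlLtJ, the New Zealand Obese strain, which becomes obese and prone to diabetes. Females and males of each strain ate a fiber-containing diet from week 6 of age until the liver was collected at week 15, either the control feed (10% fat) or the one rich in fat and sugar (44% fat). No transgene, deletion or drug is given in the labels for any group, and the strains themselves are the only genetic difference they name. The 12 groups of strain, sex and diet held 4 libraries each, apart from CAST/EiJ males on 10% fat with 3, which makes 47 in all. The title of the study poses the question of whether genetic background alters the response to diet in models of type 2 diabetes.

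Bile acids are made from cholesterol in hepatocytes. In the classical pathway the first and rate-limiting step is carried out by Cyp7a1, and Cyp8b1 then directs the product to cholic acid. An alternative pathway starts with side-chain oxidation by Cyp27a1 and continues with the oxysterol hydroxylase Cyp7b1. Cyp39a1 hydroxylates another oxysterol, which Cyp46a1 makes. Baat conjugates the finished acids to taurine or glycine, Abcb11 exports them into bile, Slc10a1 takes them back up from blood, and Nr0b2 is a nuclear receptor without a DNA-binding domain that restrains synthesis when bile acids accumulate.

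Promoter sequences are shown for 3 members on which the strain, sex and diet results below turn, Abcb11, Slc10a2 and Cyp8b1. RefSeq (GRCm38.p6) held promoters for 6 of the 10 members, and none was matched for Cyp7a1, Cyp7b1, Cyp39a1 or Baat. Each line gives the 250 bases before the start site in RefSeq's table, 5′ to 3′ on the gene's own strand, and the capitals mark the match to a motif searched for on both strands. All are reference sequence, which is that of C57BL/6J, and none shows what CAST/EiJ or NZO/HlLtJ carry at these places. The lines below cover chr2:69342617-69342866 for Abcb11, chr8:5105288-5105537 for Slc10a2 and chr9:121916306-121916555 for Cyp8b1, all on the minus strand. For Abcb11 and Cyp8b1 that start is the end of the gene span given below, whereas for Slc10a2 it lies inside the span, so the last part of its line is within the gene as the other annotation has it.
Abcb11: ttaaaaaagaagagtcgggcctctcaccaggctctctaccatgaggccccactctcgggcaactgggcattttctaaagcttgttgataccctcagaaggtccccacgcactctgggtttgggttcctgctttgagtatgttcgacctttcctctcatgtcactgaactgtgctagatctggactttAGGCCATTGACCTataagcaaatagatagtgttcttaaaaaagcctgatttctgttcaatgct
Slc10a2: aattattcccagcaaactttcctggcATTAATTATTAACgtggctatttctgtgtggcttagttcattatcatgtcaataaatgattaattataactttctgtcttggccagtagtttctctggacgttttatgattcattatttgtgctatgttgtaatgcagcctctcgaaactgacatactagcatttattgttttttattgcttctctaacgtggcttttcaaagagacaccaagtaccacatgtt
Cyp8b1: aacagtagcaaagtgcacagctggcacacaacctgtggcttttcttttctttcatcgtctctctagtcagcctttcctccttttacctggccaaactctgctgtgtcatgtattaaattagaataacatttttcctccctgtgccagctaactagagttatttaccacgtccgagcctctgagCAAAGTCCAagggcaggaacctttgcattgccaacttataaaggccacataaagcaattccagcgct
In Abcb11 the capitals mark, 63 to 51 bases before RefSeq's start, an inverted repeat of AGGTCA with 1 base between the copies and at most 1 mismatch, the arrangement known as the binding site of the bile acid receptor FXR. In Slc10a2 they mark an inverted repeat of GTTAAT, the form bound by HNF1 factors, with 1 base between the copies and at most 1 mismatch, 224 to 212 bases before RefSeq's start. In Cyp8b1 they mark CAAAGTCCA, a form bound by HNF4A, 67 to 59 bases before RefSeq's start. Of 32544 promoters of 300 bases in the table, 0.083%, 0.209% and 0.479% held the 3 motifs. The motifs were chosen after these promoters had been read, and a match describes letters in a window, not a site in use. The promoters of Cyp27a1, Slc10a1 and Nr0b2, searched in the same way, held no match.

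Total counts ran from 21609240 to 47780231 per library. Xist, Uty and Kdm5d matched the labelled sex in all 47 libraries, and the hepatocyte marker albumin (Alb) was at 27698 CPM or more in each. Levels are given as CPM, the usual measure of counts scaled to library size, here after TMM scaling. Pancreatic acinar transcripts, with Cpa1 at 20 CPM or more, marked 5 libraries: C57BL/6J female 44% fat replicates 1 and 2, C57BL/6J male 10% fat replicates 2 and 3, and CAST/EiJ female 44% fat replicate 2. The first of these stood apart in the members too. In C57BL/6J female 44% fat replicate 1, Slc10a1 was at 169.9 CPM, Cyp27a1 at 217 CPM and Cyp8b1 at 29.0 CPM, each the lowest of all 47 libraries. Calls that change without it are given with and without it. Replicate numbers are names given here in the order of the sample identifiers, and pair no samples. Whether libraries of a group came from separate mice is not stated, so p-values refer to the spread between samples, which may be technical. In bulk tissue, fewer cells of a type and less RNA per cell cannot be told apart.

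Per kilobase of exon, the 10 members spanned more than an order of magnitude. Over all 47 libraries the mean level was 252 ± 50.8 CPM per kb (SD) for Slc10a1, 196 ± 273 for Cyp7b1, 191 ± 48.5 for Cyp27a1, 168 ± 55.9 for Abcb11, 133 ± 64.1 for Cyp8b1 and 119 ± 19.4 for Baat. Lower levels per kb were found for Cyp7a1 (34.3 ± 27.7), Nr0b2 (24.4 ± 9.93), Cyp39a1 (14.7 ± 16.3) and Slc10a2 (4.64 ± 4.50). Only between Baat and Cyp7a1 did neighbours in this order have ranges of mean ± SD that did not overlap. The SD exceeded the mean for Cyp7b1 and Cyp39a1 and was smallest relative to the mean for Baat.

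**Figure D1:**
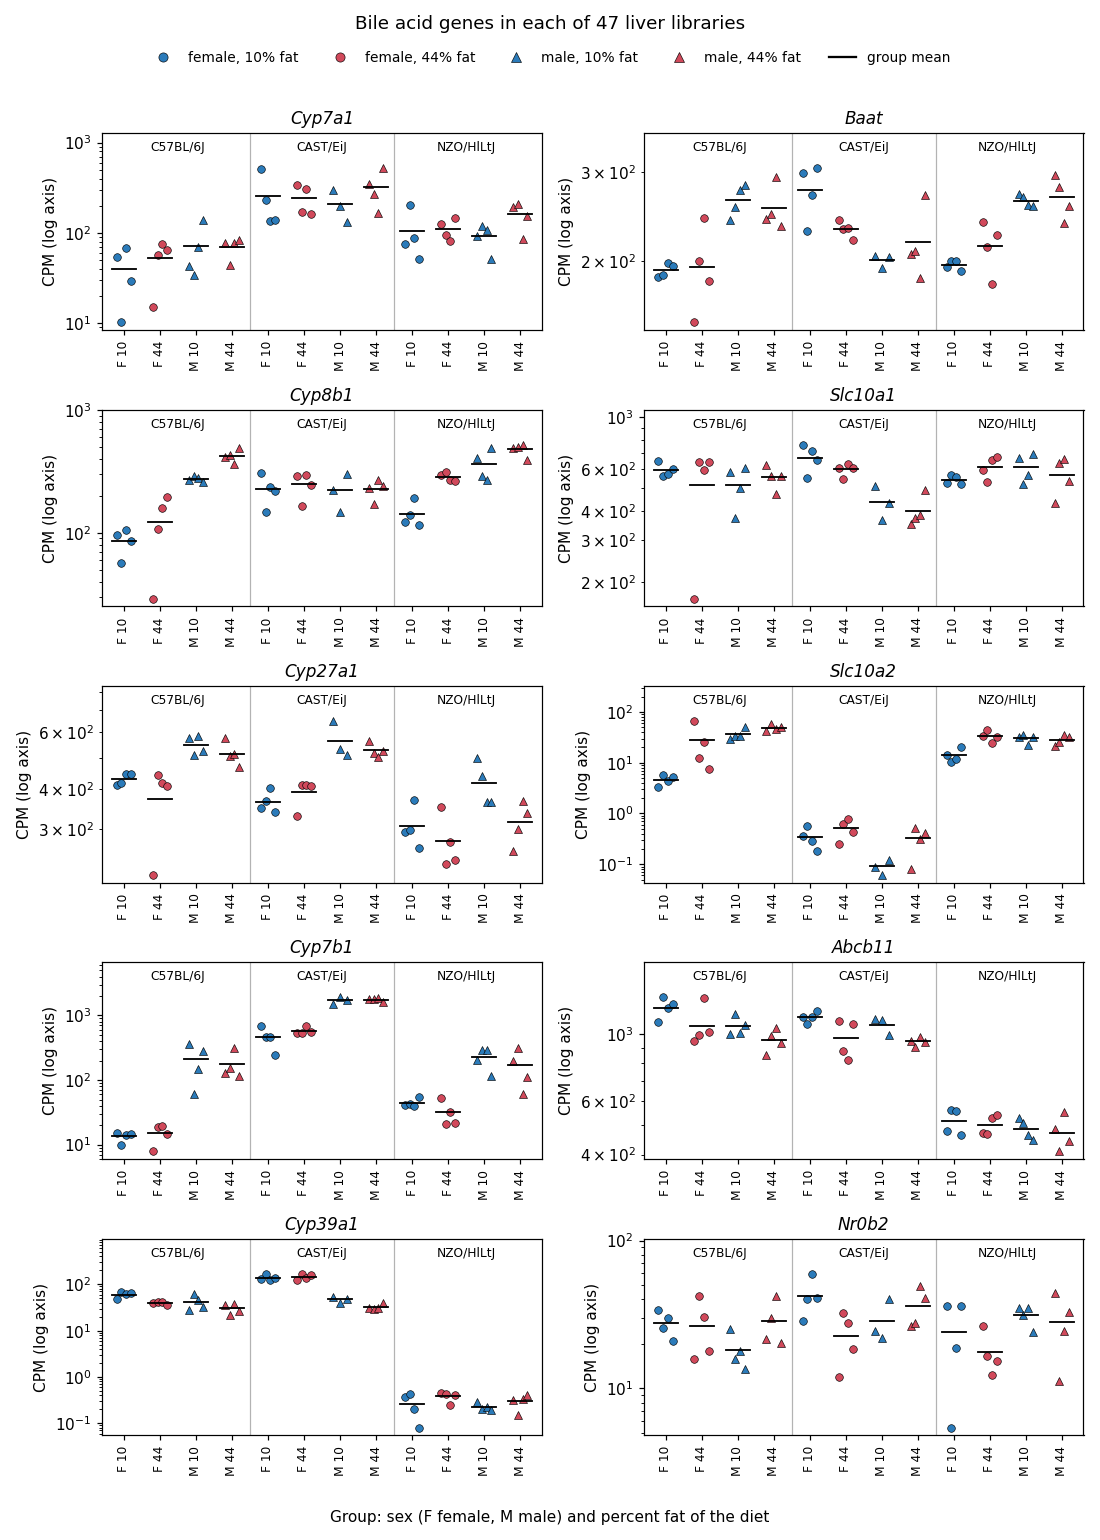
Level of each member in every library, in CPM on a log axis whose range differs by gene, for the 12 groups of strain, sex and diet; each point is 1 library and each bar a group mean. Cyp39a1 lies at or below 0.459 CPM in all 16 NZO/HlLtJ libraries, Slc10a2 at or below 0.795 CPM in all 15 CAST/EiJ libraries, and Abcb11 in NZO/HlLtJ at 409.9 to 561 CPM below every library of the other strains.

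The hydroxylases, Slc10a2 and Abcb11 differed between strains, and Baat, Slc10a1 and Nr0b2 did not pass. Between CAST/EiJ and C57BL/6J, averaged over sexes and diets, 4 of the 10 members differed, 3 higher and 1 lower in CAST/EiJ (edgeR quasi-likelihood test, Benjamini-Hochberg adjusted p under 0.05 over 16650 genes), against a background of 67.9% of all genes tested. Between NZO/HlLtJ and C57BL/6J 6 members differed, 3 in each direction, against 49.1%, and between NZO/HlLtJ and CAST/EiJ 6 differed, 1 higher and 5 lower in NZO/HlLtJ, against 68.1%. These shares are near or below the background, so the number of members that differed is not a result about them; the size of single differences is. The median log2 difference of the 10 members was 0.17, 0.08 and -0.42 in the 3 comparisons, and that of all genes -0.02, 0.00 and 0.01. The comparisons share libraries pair by pair.

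**Figure D2:**
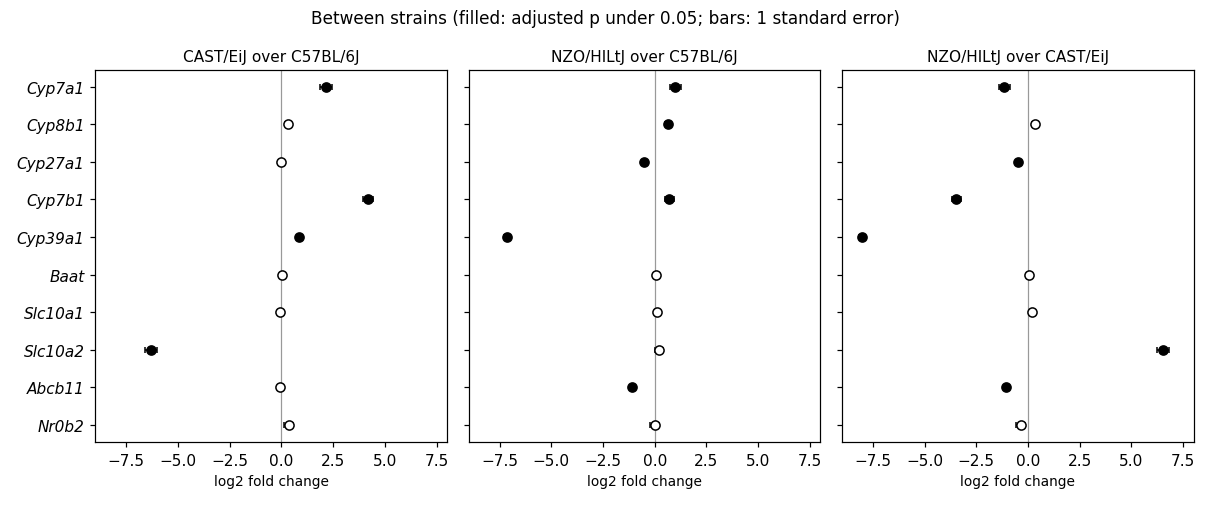
Differences between strains for each member as log2 fold changes, averaged over sexes and diets, with bars of 1 standard error and filled points for adjusted p under 0.05. Cyp39a1 is low in NZO/HlLtJ (-7.17 and -8.02) and Slc10a2 low in CAST/EiJ (-6.32), while Baat and Slc10a1 lie within 0.2 of 0 in every panel.

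Cyp7a1 (chr4:6265612-6275633), the rate-limiting enzyme of the classical pathway, was highest in CAST/EiJ. It ranged between 131 and 519 (median 233) CPM in the 15 CAST/EiJ libraries, between 51.3 and 211 (median 101) CPM in the 16 NZO/HlLtJ libraries and between 10.1 and 139.7 (median 60.6) CPM in the 16 C57BL/6J libraries. Only 1 C57BL/6J library, male 10% fat replicate 4, reached the range of CAST/EiJ, and the ranges of NZO/HlLtJ and the other strains overlapped widely. It was 4.46-fold higher in CAST/EiJ than in C57BL/6J (log2 fold change 2.16, SE 0.27, adjusted p = 1.13e-08), 2.00-fold higher in NZO/HlLtJ than in C57BL/6J (1.00, SE 0.26, adjusted p = 0.00175) and 2.23-fold lower in NZO/HlLtJ than in CAST/EiJ (-1.16, SE 0.27, adjusted p = 2.55e-04). Its transcript is known for a daily rhythm, and a score of the circadian clock (mean standardized level of Dbp and Ciart less that of Arntl and Npas2) averaged 1.64 ± 1.02 (SD, n = 15) in CAST/EiJ, -1.07 ± 1.64 (n = 16) in C57BL/6J and -0.47 ± 1.69 (n = 16) in NZO/HlLtJ. Among replicates of the same group Cyp7a1 had r = -0.002 with that score, and collection time is not in the labels. The part of the rhythm in the strain differences was not tested. With the score in the fit, which could move Cyp7a1 little at that r, the difference between CAST/EiJ and C57BL/6J was 2.18 (adjusted p = 7.32e-06). Within the 3 runs of consecutive sample identifiers, treated as possible batches, each with at most 2 libraries a group, it was 3.17, 2.32 and 1.63. The first run holds 1 library in each group of C57BL/6J and CAST/EiJ, and the other runs hold 1 in some of them. In the first run, the only one that holds all 4 NZO/HlLtJ groups, NZO/HlLtJ differed from C57BL/6J by 1.72 and from CAST/EiJ by -1.45.

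Cyp8b1 (chr9:121914356-121916305), the 12-alpha-hydroxylase that sets the share of cholic acid, was higher in NZO/HlLtJ than in C57BL/6J. It ranged between 117 and 522 (median 293) CPM in NZO/HlLtJ, between 147 and 306 (median 237) CPM in CAST/EiJ and between 29.0 and 492 (median 227) CPM in C57BL/6J. All 3 ranges overlapped, and the width in C57BL/6J and NZO/HlLtJ followed sex, as described below. The difference between NZO/HlLtJ and C57BL/6J was 1.55-fold (log2 fold change 0.63, SE 0.15, adjusted p = 6.98e-04), and 1.13 (log2) in the first identifier run. Those of CAST/EiJ from C57BL/6J (0.31, SE 0.15, adjusted p = 0.0755) and of NZO/HlLtJ from CAST/EiJ (0.32, SE 0.16, adjusted p = 0.0637) did not pass. In refits that each left out 1 library, the first passed without C57BL/6J female 44% fat replicate 4 (adjusted p = 0.0221), or without replicate 2 of CAST/EiJ females on 44% fat (0.0465), of CAST/EiJ females on 10% fat (0.0450) or of CAST/EiJ males on 10% fat (0.0441). The first also passed in limma (0.0499). Within the identifier runs it was 0.98, -0.07 and 0.24 (log2), with 1 library in each group of both strains in run 1. That run includes C57BL/6J female 44% fat replicate 1, at 29.0 CPM. The second passed in DESeq2 (adjusted p = 0.0492), without the 5 acinar libraries (0.0209), and without C57BL/6J female 44% fat replicate 1 (0.0111), CAST/EiJ female 10% fat replicate 1 (0.0381), CAST/EiJ male 10% fat replicate 3 (0.0325) or NZO/HlLtJ male 10% fat replicate 3 (0.0473).

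Of the enzymes of the alternative pathway, Cyp27a1 (chr1:74713574-74737892), the mitochondrial sterol 27-hydroxylase, differed least. It ranged between 235 and 500.2 (median 319) CPM in NZO/HlLtJ against between 217 and 582 (median 457) CPM in C57BL/6J and between 329 and 649 (median 412) CPM in CAST/EiJ. The ranges overlapped, with a lower median in NZO/HlLtJ. It was 1.42-fold lower in NZO/HlLtJ than in C57BL/6J (log2 fold change -0.50, SE 0.07, adjusted p = 1.90e-07) and 1.40-fold lower than in CAST/EiJ (-0.48, SE 0.07, adjusted p = 2.92e-07), while CAST/EiJ and C57BL/6J differed by -0.02, SE 0.07. In the first identifier run the log2 differences of NZO/HlLtJ were -0.34 and -0.47.

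Cyp7b1 (chr3:18071950-18243338), the oxysterol 7-alpha-hydroxylase, was far higher in CAST/EiJ. In the 7 CAST/EiJ males it ranged between 1509.9 and 1916 (median 1792) CPM, against between 59.9 and 365 (median 153) CPM in the 8 C57BL/6J males and between 60.5 and 310.4 (median 203) CPM in the 8 NZO/HlLtJ males. In females it ranged between 246 and 678 (median 539) CPM in CAST/EiJ, between 7.87 and 19.6 (median 14.7) CPM in C57BL/6J and between 20.6 and 54.1 (median 40.5) CPM in NZO/HlLtJ. Within each sex no CAST/EiJ library overlapped those of another strain, and among females NZO/HlLtJ lay wholly above C57BL/6J. It was 17.9-fold higher in CAST/EiJ than in C57BL/6J (log2 fold change 4.17, SE 0.24, adjusted p = 8.70e-18), and 4.36, 4.70 and 3.92 (log2) within the 3 identifier runs. NZO/HlLtJ was 11.04-fold below CAST/EiJ (-3.47, SE 0.23, adjusted p = 7.63e-16). Its 1.62-fold excess over C57BL/6J (0.70, SE 0.21, adjusted p = 0.00589) no longer passed once the 5 acinar libraries were left out (0.50, adjusted p = 0.0517) or in the first run alone (1.03, adjusted p = 0.0606).

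Cyp39a1 (chr17:43667425-43751431), the 24-hydroxycholesterol 7-alpha-hydroxylase, was almost undetected in NZO/HlLtJ. It ranged between 0.0805 and 0.459 (median 0.300) CPM there, from 4 to 19 counts a library, against between 22.1 and 67.2 (median 40.3) CPM in C57BL/6J and between 29.6 and 171 (median 124) CPM in CAST/EiJ. No NZO/HlLtJ library came near the other strains. The level in NZO/HlLtJ was 144-fold below C57BL/6J (log2 fold change -7.17, SE 0.14, adjusted p = 1.29e-33) and 259-fold below CAST/EiJ (-8.02, SE 0.14, adjusted p = 1.27e-35), and in the first identifier run the log2 differences were -6.89 and -7.85. CAST/EiJ was 1.81-fold above C57BL/6J (0.85, SE 0.10, adjusted p = 2.96e-10), with 0.97, 0.78 and 0.93 within the runs.

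The gene next to Cyp39a1 was low in NZO/HlLtJ as well. Slc25a27 (chr17:43641900-43667015), a mitochondrial carrier gene singled out by its position after the level of Cyp39a1 had been seen, lies on the opposite strand and starts 410 bases from the start of Cyp39a1. It ranged between 0 and 0.341 (median 0.118) CPM in NZO/HlLtJ, between 0.746 and 2.41 (median 1.47) CPM in C57BL/6J and between 0.765 and 3.16 (median 1.78) CPM in CAST/EiJ, again with no overlap between NZO/HlLtJ and the others (log2 difference -3.60, SE 0.21, adjusted p = 1.93e-18, against C57BL/6J). The next tested gene on the other side, Rcan2, 50420 bases beyond the end of Cyp39a1, was higher in NZO/HlLtJ (log2 difference 1.14, SE 0.19, adjusted p = 5.94e-06). Which sequence differences NZO/HlLtJ carries here was not analysed. The sources used here do not say to which strain's genome the reads were aligned, and its part in the low values of Cyp39a1 and Slc25a27 in NZO/HlLtJ was not tested.

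Baat (chr4:49489422-49506557), which conjugates bile acids to amino acids, did not pass in any comparison of strains in the fit to all 47 libraries. It ranged between 151 and 293 (median 238) CPM in C57BL/6J, between 185 and 305 (median 229) CPM in CAST/EiJ and between 180.1 and 296 (median 239) CPM in NZO/HlLtJ, with almost complete overlap. The log2 differences were 0.04, SE 0.05 for CAST/EiJ over C57BL/6J, 0.06, SE 0.05 for NZO/HlLtJ over C57BL/6J and 0.02, SE 0.05 for NZO/HlLtJ over CAST/EiJ. In the first identifier run alone the differences from C57BL/6J were larger, at 0.22 for CAST/EiJ and 0.27 for NZO/HlLtJ.

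Among the transporters, Slc10a1 (chr12:80953185-80968079), the sodium-dependent carrier that takes bile acids up from blood into hepatocytes, also overlapped between strains. It ranged between 169.9 and 648 (median 578) CPM in C57BL/6J, between 353 and 763 (median 548) CPM in CAST/EiJ and between 431 and 696 (median 567) CPM in NZO/HlLtJ. The log2 differences were -0.08, SE 0.11, 0.10, SE 0.10 and 0.18, SE 0.11 in the same order, and none passed. Without C57BL/6J female 44% fat replicate 1 the first and the last passed (as they did without the 5 acinar libraries), and with the clock score in the fit the last was 0.33 (adjusted p = 0.0198). Without that library they had adjusted p = 0.0380 and 0.0172.

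Slc10a2 (chr8:5083219-5105351) encodes the apical sodium-dependent bile acid transporter, known for uptake in the ileum and also made by bile duct cells. It was almost undetected in CAST/EiJ, where it ranged between 0.0612 and 0.795 (median 0.315) CPM, from 2 to 31 counts a library. It ranged between 3.33 and 66.6 (median 31.3) CPM in C57BL/6J and between 10.2 and 43.3 (median 28.5) CPM in NZO/HlLtJ, so no CAST/EiJ library overlapped either. CAST/EiJ was 79.7-fold below C57BL/6J (log2 fold change -6.32, SE 0.29, adjusted p = 5.11e-21) and 91.5-fold below NZO/HlLtJ (6.52, SE 0.29, adjusted p = 2.08e-21, as NZO/HlLtJ over CAST/EiJ). Within the identifier runs the difference from C57BL/6J was -7.13, -6.01 and -5.98. NZO/HlLtJ and C57BL/6J differed by 0.20, SE 0.18, adjusted p = 0.378, which passed without C57BL/6J female 44% fat replicate 1 (adjusted p = 0.0121). No other tested gene lay within 200 kb of Slc10a2. As for Cyp39a1, the part of the alignment in the low values of CAST/EiJ was not tested.

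Of 8 markers of bile duct and gallbladder cells, 4 were lower and 0 higher in CAST/EiJ than in C57BL/6J, with a median log2 difference of -0.47, against 67.9% of all genes called there. Their summed level ran from 23.0 to 36.0 CPM in CAST/EiJ, 28.0 to 64.0 CPM in C57BL/6J and 22.7 to 52.2 CPM in NZO/HlLtJ, and only Cftr (1 library) and Tff2 (15 libraries) were at 0 anywhere. Spp1 alone had a median of 24.2 CPM over the 47 libraries, against 31.6 CPM for the whole list. The part of bile duct and gallbladder cells in the level of Slc10a2 was not tested. Of 6 intestinal markers, Vil1 alone was in the table, at 0.383 CPM or less.

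Abcb11 (chr2:69238282-69342616), the bile salt export pump of the canalicular membrane, was low in NZO/HlLtJ. It ranged between 409.9 and 561 (median 483) CPM there, between 851 and 1321 (median 1027) CPM in C57BL/6J and between 822 and 1191 (median 1075) CPM in CAST/EiJ. All 16 NZO/HlLtJ libraries lay below all 31 others. The level was 2.17-fold below C57BL/6J (log2 fold change -1.12, SE 0.05, adjusted p = 1.00e-21) and 2.08-fold below CAST/EiJ (-1.06, SE 0.05, adjusted p = 2.91e-21), and in the first identifier run the log2 differences were -0.99 and -1.14. CAST/EiJ and C57BL/6J differed by -0.06, SE 0.05.

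Nr0b2 (chr4:133553376-133556536), the repressor known as SHP, ranged between 13.5 and 42.2 (median 23.4) CPM in C57BL/6J, between 12.01 and 59.8 (median 28.7) CPM in CAST/EiJ and between 5.41 and 44.5 (median 25.5) CPM in NZO/HlLtJ. The ranges overlapped, and the log2 differences of 0.35, SE 0.21, -0.01, SE 0.21 and -0.36, SE 0.21 did not pass in the fit to all 47 libraries. In the third identifier run alone CAST/EiJ lay 0.75 (log2) above C57BL/6J.

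Cell type markers moved with strain beside these members. Of 5 markers of pericentral hepatocytes, the zone in which the first steps of bile acid synthesis are concentrated, 4 were lower in NZO/HlLtJ than in C57BL/6J and 5 lower than in CAST/EiJ (against 49.1% and 68.1% of all genes), and their summed level ran from 3541 to 6512 CPM in NZO/HlLtJ, 2311 to 8466 CPM in C57BL/6J and 5906 to 10014 CPM in CAST/EiJ. The low end in C57BL/6J was female 44% fat replicate 1, and the next library was at 5498 CPM. Cyp2e1 alone had a median of 4510 CPM over the 47 libraries, against 6437 CPM for the 5 pericentral markers. Of 5 periportal markers, 3 were higher and 1 lower in NZO/HlLtJ than in C57BL/6J and 3 higher and 2 lower than in CAST/EiJ, with summed levels of 2151 to 6289 CPM in NZO/HlLtJ, 2758 to 5492 CPM in C57BL/6J and 3809 to 6337 CPM in CAST/EiJ. Of 6 general hepatocyte markers, 2 were higher and 2 lower in both CAST/EiJ and NZO/HlLtJ than in C57BL/6J. Of 5 Kupffer cell markers, 5 were lower in CAST/EiJ than in C57BL/6J (against 67.9% of all genes), with summed levels of 82.6 to 265 CPM and 162 to 297 CPM. Their part in the strain differences of the members was not tested.

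The hydroxylases other than Cyp7a1 differed between the sexes in at least 1 strain. Between females and males, averaged over diets, 6 of the 10 members differed in C57BL/6J (1 higher and 5 lower in females, against 16.8% of all genes), 5 in CAST/EiJ (3 higher and 2 lower, against 30.3%) and 4 in NZO/HlLtJ (4 lower, against 17.2%). The median log2 difference of the members, females over males, was -0.42, 0.07 and -0.35, and that of all genes 0.01, 0.01 and 0.02. The difference between the sexes itself differed among the strains for 5 of the 10 members, against 13.6% of all genes.

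**Figure D3:**
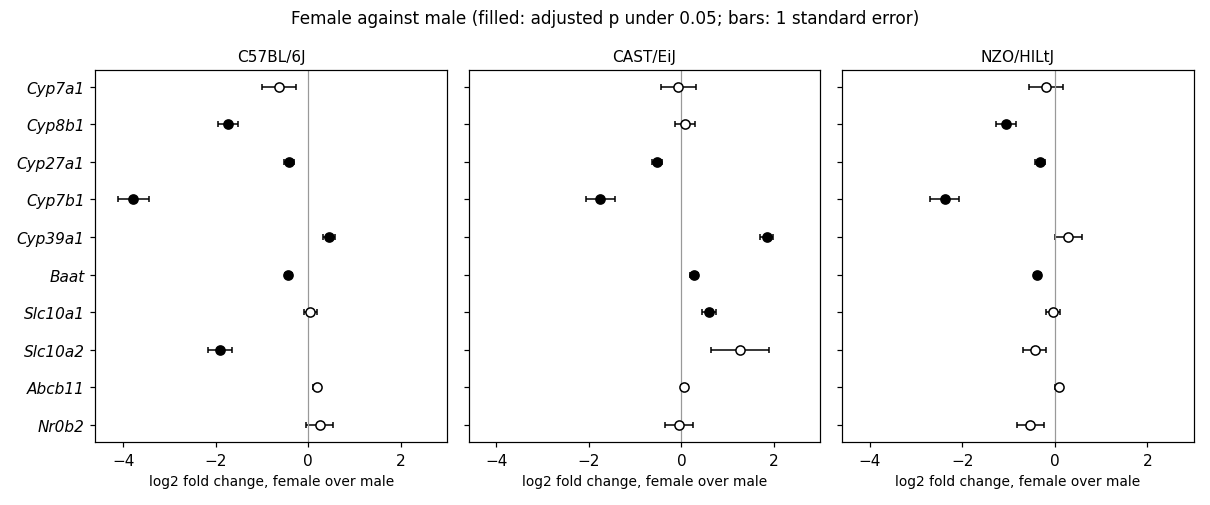
Difference between females and males for each member in each strain, as log2 fold changes averaged over diets, with bars of 1 standard error and filled points for adjusted p under 0.05. Cyp7b1 and Cyp27a1 are lower in females in every panel, Cyp8b1 is lower in C57BL/6J (-1.73) and NZO/HlLtJ (-1.04) and at 0.08 in CAST/EiJ, and Cyp39a1 is highest in females of CAST/EiJ (1.85).

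Cyp7b1 was lower in females of all 3 strains. Its levels by sex, given above, did not overlap between females and males of any strain. Females were 13.7-fold lower in C57BL/6J (log2 fold change -3.78, SE 0.33, adjusted p = 3.63e-11), 3.37-fold lower in CAST/EiJ (-1.75, SE 0.31, adjusted p = 3.34e-05) and 5.21-fold lower in NZO/HlLtJ (-2.38, SE 0.31, adjusted p = 4.04e-07). The size differed among strains (joint test of strain by sex, adjusted p = 0.00271). Within the identifier runs the log2 difference was -4.31, -2.68 and -3.87 in C57BL/6J and -1.44, -1.83 and -1.88 in CAST/EiJ.

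Cyp8b1 was lower in females of C57BL/6J and NZO/HlLtJ and did not pass between the sexes of CAST/EiJ. It ranged between 29.0 and 196 (median 100.4) CPM in C57BL/6J females against between 258 and 492 (median 326) CPM in males. In NZO/HlLtJ it ranged between 117 and 313 (median 227) CPM in females against between 271 and 522 (median 445) CPM in males, and in CAST/EiJ between 147 and 306 (median 241) CPM against between 147 and 298 (median 231) CPM. The sexes did not overlap in C57BL/6J, overlapped in part in NZO/HlLtJ and overlapped nearly throughout in CAST/EiJ. Females were 3.32-fold lower in C57BL/6J (log2 fold change -1.73, SE 0.22, adjusted p = 1.80e-07) and 2.06-fold lower in NZO/HlLtJ (-1.04, SE 0.22, adjusted p = 5.78e-04), against 0.08, SE 0.22 in CAST/EiJ. The differences differed among strains (adjusted p = 2.65e-04). Within the runs the log2 difference was -2.66, -1.76 and -1.39 in C57BL/6J, and -1.05 in the first run of NZO/HlLtJ.

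Cyp27a1 was lower in females of each strain. It ranged between 217 and 446 (median 417) CPM in C57BL/6J females and between 467 and 582 (median 519) CPM in males, and between 329 and 412 (median 385) CPM in CAST/EiJ females and between 504 and 649 (median 524) CPM in males. Neither pair overlapped, whereas in NZO/HlLtJ females (between 235 and 371 (median 284) CPM) and males (between 258 and 500.2 (median 363) CPM) did. The log2 differences were -0.41, SE 0.10, adjusted p = 0.00373 in C57BL/6J, -0.53, SE 0.11, adjusted p = 1.48e-04 in CAST/EiJ and -0.32, SE 0.10, adjusted p = 0.0258 in NZO/HlLtJ. The last missed the threshold in 6 of 47 refits that each left out 1 library, namely NZO/HlLtJ females on 44% fat (replicates 2 and 4) and 10% fat (4) and males on 10% fat (1) and 44% fat (3 and 4), with adjusted p up to 0.0793. The NZO/HlLtJ difference also missed it with the clock score as a covariate (adjusted p = 0.0788). Within the runs the log2 difference was -0.95, -0.23 and -0.29 in C57BL/6J and -0.84, -0.42 and -0.39 in CAST/EiJ, and -0.29 in the first run of NZO/HlLtJ.

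Cyp39a1 went the other way. In CAST/EiJ females it ranged between 124 and 171 (median 134) CPM against between 29.6 and 54.1 (median 39.2) CPM in males, and in C57BL/6J females between 36.1 and 67.2 (median 44.5) CPM against between 22.1 and 60.9 (median 33.5) CPM in males. The CAST/EiJ sexes did not overlap and those of C57BL/6J did. Females were 3.60-fold higher in CAST/EiJ (log2 fold change 1.85, SE 0.14, adjusted p = 2.51e-13) and 1.37-fold higher in C57BL/6J (0.46, SE 0.13, adjusted p = 0.0127), with a difference among strains (adjusted p = 1.60e-06). At the low level of NZO/HlLtJ the difference was 0.29, SE 0.29. Within the runs the log2 difference was 1.63, 2.20 and 1.71 in CAST/EiJ and 0.45, 0.49 and 0.45 in C57BL/6J, where it passed in none of them.

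Baat reversed between strains. It ranged between 151 and 243 (median 191) CPM in C57BL/6J females and between 234 and 293 (median 252) CPM in males, and between 180.1 and 239 (median 199.9) CPM in NZO/HlLtJ females and between 238 and 296 (median 263) CPM in males. In CAST/EiJ females had the higher levels, at between 219.5 and 305 (median 237) CPM against between 185 and 269.9 (median 204) CPM in males. The sexes overlapped in a few libraries in each strain. The log2 differences were -0.43, SE 0.08, adjusted p = 5.04e-05 in C57BL/6J, -0.37, SE 0.08, adjusted p = 3.43e-04 in NZO/HlLtJ and 0.27, SE 0.08, adjusted p = 0.00669 in CAST/EiJ, and they differed among strains (adjusted p = 6.36e-06). Within the runs they were -0.53, -0.29 and -0.52 in C57BL/6J and 0.39, 0.24 and 0.12 in CAST/EiJ, and -0.40 in the first run of NZO/HlLtJ.

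In the fit to all 47 libraries, each uptake transporter passed between the sexes in 1 strain. Slc10a1 ranged between 548 and 763 (median 619.8) CPM in CAST/EiJ females and between 353 and 512 (median 384) CPM in males, with no overlap, and was 1.52-fold higher in females (log2 fold change 0.60, SE 0.16, adjusted p = 0.00264), with 0.68, 0.62 and 0.51 within the runs. It differed by 0.05, SE 0.15 in C57BL/6J and -0.03, SE 0.15 in NZO/HlLtJ. The joint test missed the threshold (adjusted p = 0.0679) but passed in DESeq2 (adjusted p = 0.0312), without the 5 acinar libraries (6.01e-04) and without C57BL/6J female 44% fat replicate 1 (adjusted p = 0.00187). In 4 other refits that left out 1 library it also passed, without C57BL/6J female 44% fat replicate 2 (adjusted p = 0.0491), C57BL/6J male 10% fat replicate 2 (0.0442), CAST/EiJ male 44% fat replicate 4 (0.0461) or NZO/HlLtJ male 44% fat replicate 1 (0.0486).

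Slc10a2 was lower in females of C57BL/6J, at between 3.33 and 66.6 (median 6.58) CPM against between 28.9 and 56.8 (median 43.8) CPM in males. Apart from replicate 1 on 44% fat at 66.6 CPM, every C57BL/6J female lay below every male. The difference was 3.74-fold (log2 fold change -1.90, SE 0.26, adjusted p = 1.17e-06) and reached -2.34 (log2) without that library, with -1.22, -2.17 and -2.86 within the runs. It was -0.44, SE 0.25 in NZO/HlLtJ and 1.26, SE 0.63, adjusted p = 0.128 in CAST/EiJ, where it passed in DESeq2 (adjusted p = 0.00798), with CAST/EiJ fitted alone (0.0249) and without that same C57BL/6J library (0.0392), and it differed among strains (adjusted p = 4.84e-04).

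Cyp7a1, Abcb11 and Nr0b2 did not pass between the sexes in any strain. The log2 differences of Cyp7a1 were -0.62, SE 0.37, -0.07, SE 0.38 and -0.18, SE 0.37 (C57BL/6J, then CAST/EiJ, then NZO/HlLtJ). Those of Abcb11 were 0.18, SE 0.07, 0.06, SE 0.07 and 0.08, SE 0.07, and those of Nr0b2 0.25, SE 0.29, -0.06, SE 0.30 and -0.53, SE 0.29. Abcb11 in C57BL/6J (adjusted p = 0.0759) passed with the filter of 1 CPM in at least 4 libraries (0.0466), without the 5 acinar libraries (0.0323), and without female 44% fat replicate 1 (0.0424) or male 10% fat replicate 2 (0.0491).

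Pairs of strains were compared as well. The female-male difference of CAST/EiJ differed from that of C57BL/6J for 5 members (Cyp8b1, Cyp7b1, Cyp39a1, Baat and Slc10a2), against 10.5% of all genes. It differed from that of NZO/HlLtJ for 4 (Cyp8b1, Cyp39a1, Baat and Slc10a1), against 13.6%. Between NZO/HlLtJ and C57BL/6J 1 member differed, Slc10a2 (1.46, SE 0.36, adjusted p = 0.0498), against 0.571%. Of 5 Kupffer cell markers, 2, 5 and 5 were higher in females (C57BL/6J, then CAST/EiJ, then NZO/HlLtJ), with summed levels of 129 to 265 CPM in CAST/EiJ females and 82.6 to 148 CPM in males. Of 6 hepatocyte markers, 1, 2 and 1 were higher and 0, 0 and 1 lower in females, in the same order. Their summed level was 70917 to 108290.0 CPM in CAST/EiJ females and 39591 to 67159 CPM in males, with no overlap, 85319.5 to 124645 CPM and 53522 to 94511 CPM in NZO/HlLtJ, and 76105 to 99797 CPM and 67136 to 85258 CPM in C57BL/6J. Alb alone had a median of 73031 CPM over the 47 libraries, against 84591 CPM for the 6 hepatocyte markers. None of 8 bile duct and gallbladder markers differed by sex in any strain. The part of these cells in the sex differences was not tested.

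Diet moved few members. On 44% fat against 10% fat, averaged over the sexes, 2 of 10 members changed in C57BL/6J (Slc10a2 rose and Cyp39a1 fell, against 0.991% of all genes), 0 in CAST/EiJ (against 0.895%) and 1 in NZO/HlLtJ (Cyp8b1 rose, against 5.64%). For the count of 0 in CAST/EiJ, 1 member had an unadjusted p under 0.05 in edgeR, and DESeq2 and limma called 0 too. The median log2 change of the members was -0.03, -0.03 and 0.05, and that of all genes 0.01, 0.00 and 0.00.

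**Figure D4:**
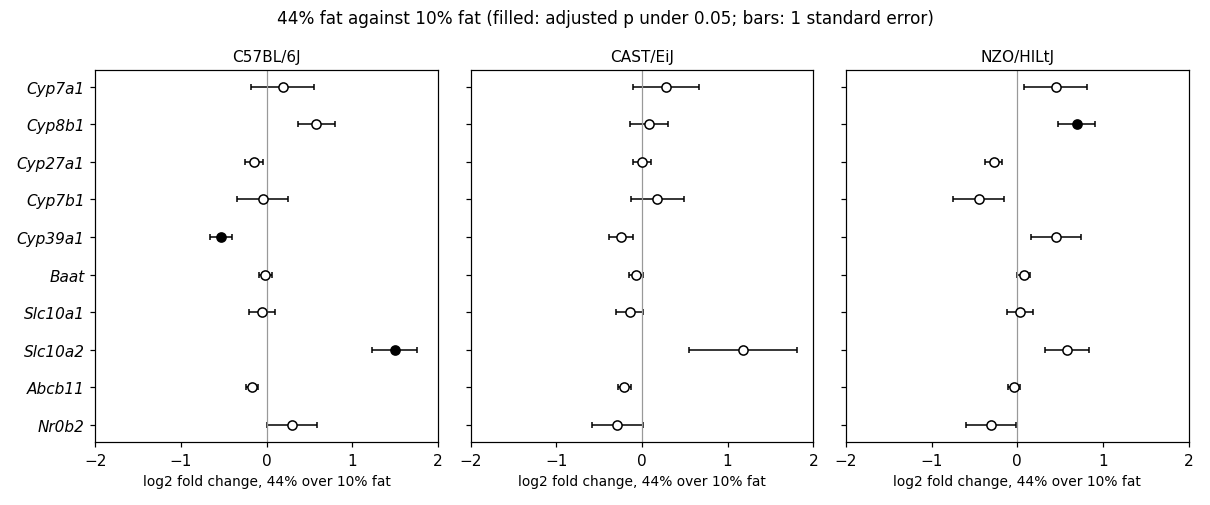
Change on 44% fat against 10% fat for each member in each strain, as log2 fold changes averaged over the sexes, with bars of 1 standard error and filled points for adjusted p under 0.05. Slc10a2 (1.49) and Cyp39a1 (-0.53) pass in C57BL/6J and Cyp8b1 (0.70) in NZO/HlLtJ.

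Slc10a2 rose in C57BL/6J, and in the females taken alone. It was at 3.33, 5.68, 4.35 and 5.27 CPM in the 4 females on 10% fat and at 66.6, 12.3, 25.4 and 7.48 CPM in the 4 on 44% fat. In males it was at 28.9, 33.7, 34.2 and 51.4 CPM on 10% fat and at 41.8, 56.8, 45.9 and 51.0 CPM on 44% fat. Every female on 44% fat lay above every female on 10% fat, whereas the diets overlapped in males. Over both sexes the rise was 2.82-fold (log2 fold change 1.49, SE 0.26, adjusted p = 0.00225), in females 6.01-fold (2.59, SE 0.39, adjusted p = 4.95e-04), and in males the change was 0.40, SE 0.36. In females alone 1 member was called, against 0.102% of all genes, and in males 0, against 0.042%; 2 members had an unadjusted p under 0.05 in the males.

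The size of that rise rested on C57BL/6J female 44% fat replicate 1. Without it the log2 change was 1.04 over both sexes (adjusted p = 0.00591) and 1.69 in females (adjusted p = 0.00450). This library also had the most acinar transcript of its group, 442 CPM over the list, and 64.0 CPM of bile duct and gallbladder markers, against 36.6 to 39.2 CPM in the other 3 females on 44% fat and 33.8 to 38.3 CPM in those on 10% fat. At the medians given above for the 47 libraries, Spp1 alone was most of the summed level of these markers. Of those 8 markers none changed by diet in C57BL/6J, and their part in the rise was not tested. Within the identifier runs the change in C57BL/6J was 2.42, 1.33 and 0.33. In the first run each C57BL/6J group held 1 library, and female 44% fat replicate 1 was among them. With C57BL/6J fitted alone the change was 1.48 (adjusted p = 0.189).

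The females of NZO/HlLtJ showed the same order for Slc10a2 without passing. It was at 14.1, 10.2, 11.96 and 20.1 CPM on 10% fat and 34.1, 43.3, 24.9 and 31.7 CPM on 44% fat, with no overlap, against 32.1, 35.7, 22.1 and 31.5 CPM and 21.0, 25.6, 35.7 and 31.6 CPM in males. The log2 change was 1.25, SE 0.36, adjusted p = 0.110 in females and -0.09, SE 0.36 in males. Over both sexes it was 0.58, SE 0.25, adjusted p = 0.196, and it passed with NZO/HlLtJ fitted alone (0.58, adjusted p = 0.0423). In CAST/EiJ, at a few counts a library, the change over both sexes was 1.18, SE 0.63, adjusted p = 0.468. The test of whether the diet change differed between the sexes gave 2.19, SE 0.52, adjusted p = 0.160 in C57BL/6J and 1.34, SE 0.51, adjusted p = 0.557 in NZO/HlLtJ.

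Cyp39a1 fell in C57BL/6J. It was at 47.3, 67.2, 61.6 and 63.7 CPM in females on 10% fat and at 39.4, 41.6, 41.3 and 36.1 CPM on 44% fat, and in males at 28.4, 60.9, 45.5 and 31.9 CPM and 35.1, 22.1, 37.5 and 26.0 CPM. The diets did not overlap in females and overlapped in males. The change was 1.45-fold lower (log2 fold change -0.53, SE 0.13, adjusted p = 0.0351). It lost the threshold in 9 of 47 refits that each left out 1 library (C57BL/6J female 10% fat replicates 2, 3 and 4, female 44% fat replicates 3 and 4, male 10% fat replicates 2 and 3, and male 44% fat replicates 2 and 4; adjusted p up to 0.111), and without the 5 acinar libraries it was -0.32 (adjusted p = 0.408). The change also missed the threshold with the clock score as a covariate (adjusted p = 0.124) and with C57BL/6J fitted alone (0.212). Within the identifier runs it was 0.02, -1.05 and -0.57.

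Cyp8b1 rose in NZO/HlLtJ. In females it was at 123, 140.3, 191 and 117 CPM on 10% fat and at 294, 313, 270.2 and 263 CPM on 44% fat, and in males at 405, 292, 271 and 486 CPM and 491, 503, 522 and 392 CPM. The diets did not overlap in females and overlapped in males. The rise was 1.62-fold (log2 fold change 0.70, SE 0.22, adjusted p = 0.0480), close to the threshold, and missed it in 34 of 47 refits that each left out 1 library, with adjusted p from 0.00456 to 0.108 and log2 changes from 0.64 to 0.78. It also missed it with the clock score as a covariate (0.74, adjusted p = 0.0554), the run as a covariate (0.0514) or no filter (0.0659). The clock score of NZO/HlLtJ averaged -1.22 ± 1.27 (SD, n = 8) on 10% fat and 0.28 ± 1.80 (n = 8) on 44% fat, and the summed hepatocyte markers were 75562 to 94511 CPM and 53522 to 73038 CPM in males and 86093 to 124645 CPM and 85319.5 to 96542 CPM in females. Alb alone was most of that sum at the medians given above, and the part of hepatocyte content was not tested. In the first identifier run the rise was 0.86; the other runs do not hold both diets in both sexes of NZO/HlLtJ.

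In C57BL/6J the values of Cyp8b1 were 95.1, 56.1, 106 and 85.6 CPM in females on 10% fat and 29.0, 108, 159 and 196 CPM on 44% fat, and 266, 288, 280.5 and 258 CPM and 413, 428, 363 and 492 CPM in males. Males did not overlap between diets, and among females only replicate 1 on 44% fat lay below those on 10% fat. The change missed the threshold (log2 fold change 0.58, SE 0.22, adjusted p = 0.222) but passed without that replicate (0.74, adjusted p = 0.0149) and without the 5 acinar libraries (0.87, adjusted p = 0.0249). Within the identifier runs it was -0.54, 0.65 and 0.92. In CAST/EiJ it was 0.08, SE 0.22.

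The other members did not pass by diet in any strain. The log2 difference of Cyp7a1 was 0.19, SE 0.37 in C57BL/6J, 0.28, SE 0.38 in CAST/EiJ and 0.45, SE 0.37 in NZO/HlLtJ. Its replicates spread widely, for example 514, 233, 136 and 139.6 CPM in the CAST/EiJ females on 10% fat. The log2 differences of Abcb11 were -0.17, SE 0.07, -0.21, SE 0.07 and -0.04, SE 0.07. Cyp27a1 in NZO/HlLtJ (-0.28, SE 0.10, adjusted p = 0.109) passed without C57BL/6J female 44% fat replicate 1 (adjusted p = 0.0314) or NZO/HlLtJ female 44% fat replicate 1 (0.0327). Log2 differences of Cyp7b1, Baat, Slc10a1 and Nr0b2 lay between -0.45 (Cyp7b1 in NZO/HlLtJ) and 0.30 (Nr0b2 in C57BL/6J) across the strains.

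No member passed for a diet change that differed between strains. In the joint test of strain by diet 0 of 10 members passed, against 0.048% of all genes; the smallest adjusted p was 0.300, for Cyp39a1, the only member with an unadjusted p under 0.05, and DESeq2 and limma called 0. Nor did any member pass for a diet change that differed between the sexes, with 0 of 10 in C57BL/6J (against 0.0841%), CAST/EiJ (against 0%) and NZO/HlLtJ (against 0.018%), and with 1, 2 and 1 members at an unadjusted p under 0.05. With 3 or 4 libraries a group, this does not show that the changes were the same.

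Other genes of the pathway were taken from 3 lists, with 12 measured genes of synthesis, 12 of transport and 9 of regulation. By diet, none of these 33 genes changed in C57BL/6J. In CAST/EiJ 3 rose, among them Hsd17b4, which acts in the peroxisomal shortening of the side chain (0.42, SE 0.07, adjusted p = 4.81e-04), and Abcb4, the phospholipid exporter of bile (0.47, SE 0.12, adjusted p = 0.0484). In NZO/HlLtJ 4 rose, with Hsd17b4 (0.34, SE 0.06, adjusted p = 9.17e-04) and Abcb4 (0.58, SE 0.12, adjusted p = 0.00174) again among them, and 1 fell, Cyp2c70, which makes muricholic acids (-0.78, SE 0.18, adjusted p = 0.00476). Of the 12 synthesis genes 2 and 3 passed in CAST/EiJ and NZO/HlLtJ, of the 12 transporters 1 and 1, and of the 9 regulators 0 and 1. The diet calls over all genes were 0.991% (C57BL/6J), 0.895% (CAST/EiJ) and 5.64% (NZO/HlLtJ).

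Between strains, 5 synthesis genes were higher and 4 lower in CAST/EiJ than in C57BL/6J, with 5 transporters higher and 6 lower and 3 regulators higher and 1 lower, against 67.9% of all genes called. The smallest p belonged to Abcc3, a basolateral exporter that was lower in CAST/EiJ (-2.83, SE 0.14, adjusted p = 3.91e-20), and to Cyp46a1, which makes the substrate of Cyp39a1 and was higher (3.02, SE 0.17, adjusted p = 8.40e-19). In NZO/HlLtJ against C57BL/6J 7 synthesis genes were higher and 2 lower, 2 transporters higher and 5 lower, and 2 regulators higher and 1 lower, against 49.1%. Fgfr4, the receptor through which intestinal FGF15 represses bile acid synthesis, was higher in NZO/HlLtJ (0.66, SE 0.04, adjusted p = 9.90e-17). Between females and males, Scp2, a peroxisomal thiolase and sterol carrier, was lower in females of C57BL/6J (-1.04, SE 0.07, adjusted p = 7.78e-16), CAST/EiJ (-1.51, SE 0.07, adjusted p = 1.03e-20) and NZO/HlLtJ (-1.32, SE 0.07, adjusted p = 6.68e-19). The organic anion transporter Slco1a4 was higher in females of C57BL/6J (2.22, SE 0.25, adjusted p = 1.35e-08), CAST/EiJ (3.25, SE 0.29, adjusted p = 2.28e-11) and NZO/HlLtJ (1.72, SE 0.25, adjusted p = 2.42e-06), and Slco1a1 lower in females of C57BL/6J (-3.13, SE 0.41, adjusted p = 4.01e-07) and NZO/HlLtJ (-2.98, SE 0.41, adjusted p = 1.10e-06).

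Among replicates of the same group, 3 of 55 relations between members, or between a member and the clock score, passed as Pearson's r on deviations from group means (47 libraries, permutation test within groups, 100000 resamples, Benjamini-Hochberg adjusted over the 55). Cyp8b1 and Slc10a1 rose and fell together (r = 0.75, rho = 0.53, adjusted permutation p = 0.0286 and 0.0327), with r = 0.46 without the 2 libraries farthest from the median. Cyp7a1 was related to Baat (r = 0.53, rho = 0.54, adjusted permutation p = 0.0286 and 0.0264; r = 0.48 without 2). Cyp7a1 and Cyp7b1 passed for r alone (r = 0.47, rho = 0.42, adjusted permutation p = 0.0324 and 0.141; r = 0.41 without 2). Within the 3 identifier runs r was 0.89, 0.55 and 0.65 for the first pair, 0.74, 0.48 and 0.38 for the second and 0.37, 0.51 and 0.42 for the third. Without the 5 acinar libraries all 3 missed the threshold, and with the deposited variance-stabilized values 1 of the 3 missed it. Cyp7a1 and its repressor Nr0b2 had r = -0.23 (rho = -0.18, adjusted permutation p = 0.403 and 0.567; r = -0.35 without 2), which missed the threshold.

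The genes most like each member in these deviations, among 10372 eligible genes over 47 libraries and given as Pearson's r with no test, differed from member to member. For Slc10a1 they were Glul (0.88), Nxpe2 (0.87) and Slc2a5 (0.85), for Cyp8b1 Rfx4 (0.81), Ido2 (0.78) and Bbox1 (0.78), and for Cyp27a1 Hint2 (0.79), Apoh (0.79) and Fxyd1 (0.78). For Cyp7b1 they were RP23-306P12.3 (0.82), Adh6-ps1 (0.81) and C8b (0.80), for Cyp7a1 Bcs1l (0.66), Galnt4 (0.63) and Sult2a8 (0.63), and for Cyp39a1 Ankrd13b (0.59), Wrnip1 (0.59) and Ces1b (0.57). For Baat they were BC029214 (0.73), Apol7a (0.69) and Pou6f1 (0.68), and for Slc10a2 Robo2 (0.75), Rapgef2 (0.71) and Sptan1 (0.68). For Abcb11 they were Mtch2 (0.61), Mospd2 (0.60) and Stim1 (0.55), and for Nr0b2 Spry4 (0.58), Fam234b (0.57) and Sesn2 (0.52). Without the 2 libraries farthest from the median, r fell to 0.69 for Slc10a1 and Glul (rho 0.65), 0.53 for Cyp8b1 and Ido2 (rho 0.49) and 0.59 for Cyp8b1 and Bbox1 (rho 0.55). Over the 30 pairs it then lay between 0.43 (Nr0b2 and Sesn2) and 0.78 (Cyp7b1 and RP23-306P12.3). The libraries share their groups and, in 5 cases, acinar transcripts.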

How the data were processed

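PolyA-selected RNA from liver was sequenced as paired-end reads, per the labels' protocols. The values are expected counts per gene that the authors deposited, of which 20.3% were not whole (tolerance 1e-06); they were rounded. The authors also deposited variance-stabilized log2 values, recognized by name and range and used only for limma and for an alternative of the relations. The submitters' processing notes name DESeq2 and the build GRCm38; not given in the sources used here are the aligner, the annotation, the use of strand and whether each strain's reads were aligned to its own genome.

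Libraries were scaled by TMM, and genes with low counts in the 12 groups were left out by edgeR's filter, which kept 16650 of 20320. One model with 12 group means was fitted to 47 libraries with edgeR 4.0.16 in R 4.3.3 (robust quasi-likelihood, 35 residual degrees of freedom). P-values were two-sided and adjusted by Benjamini-Hochberg over all genes tested, with a threshold of 0.05. Strain, sex and diet effects are averages of group means. Relations used log2 CPM with a prior count of 2. DESeq2 1.42.0 and limma 3.58.1 were alternatives, beside other scalings, filters, covariates and refits without each library. The fit was tested on simulated data. Exon lengths for CPM per kb came from the reference annotation.

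The text names all 10 members, of the pathway lists up to 4 called genes of smallest p in each comparison, and for each member the 3 genes of highest r. Members and lists were chosen with earlier results of these data known. Totals of 21609240 to 47780231 counts limit precision for genes of a few counts.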

Additional observations from a re-analysis of the deposited data

Results flagged for a closer look

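Each member was looked at within each group of 4 libraries, which made 110 sets. In 4 of the 110 the highest or lowest stood far from the rest. Chance flags about 1 in 20 sets, and sets of different members share libraries. In C57BL/6J female 44% fat replicate 1, Slc10a1 was at 170 CPM against 594 to 643 CPM in the other 3 libraries, and Cyp27a1 at 217 CPM against 408 to 442 CPM. In CAST/EiJ females on 44% fat, Cyp27a1 was at 329 CPM in replicate 1 against 408 to 412 CPM in the others, and Cyp7b1 at 678 CPM in replicate 3 against 536 to 560 CPM.

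The female-male difference differed among strains for 5 members in edgeR's joint test of strain by sex. The adjusted p was 2.65e-04 for Cyp8b1, 0.00271 for Cyp7b1, 1.60e-06 for Cyp39a1, 6.36e-06 for Baat and 4.84e-04 for Slc10a2.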

How the results depend on the processing

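The 40 called member results by strain, sex, diet and strain by sex, with the diet change of C57BL/6J females, were followed through the alternatives. All kept their side of the threshold with relative log scaling, a filter of 1 CPM in at least 4 libraries, DESeq2 and limma. Their direction was kept as well, except that the joint test of strain by sex gives none. Comparisons of the female-male difference between pairs of strains were not among the 40. By diet in C57BL/6J 2 members were called, with 165 of 16650 genes. With the clock score as a covariate it was 1 member and 87 genes. The strain fitted alone gave 0 members and 4 of 15301 genes. Leaving out each library gave 1 to 3 members (3 without C57BL/6J female 44% fat replicate 1). Single identifier runs, in which groups of C57BL/6J held 1 or 2 libraries, called fewer members and fewer of all genes. In NZO/HlLtJ 1 member was called, with 939 of 16650 genes. It was 0 with no filter (817 of 20077 genes), and with the run (941 of 16650) or the clock score (815 of 16650) as a covariate. It was 2 without the 5 acinar libraries (1235 of 16862) and with the strain fitted alone (956 of 15089). Leaving out each library gave 0 to 2. By sex, C57BL/6J had 6 calls and CAST/EiJ 5. Fewer members and fewer of all genes were called in runs 2 and 3 alone for C57BL/6J, and in each run alone for CAST/EiJ. Strain by sex had 5, and run 1 alone called fewer members and fewer of all genes. Cyp39a1 by diet in C57BL/6J reversed to 0.019 (log2) in run 1 alone. The causes were not tested, and single runs hold 15 or 16 libraries. No paired analysis was possible because the labels give no replicate numbers; those in the text only name libraries. The identifier run was fitted as a covariate instead. At 2 to 31 counts a library, changes of Slc10a2 within CAST/EiJ were measured with little precision, as were those of Cyp39a1 within NZO/HlLtJ at 4 to 19.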
